A study of Mus musculus with 42 samples.

Results

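Glutathione S-transferases were followed in newborn mouse lung with and without Nfe2l2, the gene of the transcription factor NRF2. The 10 genes described are Gsta3 and Gsta4 of the alpha class, Gstm1, Gstm2 and Gstm5 of the mu class, Gsto1 of the omega class, Gstt1 of the theta class, and the microsomal enzymes Mgst1, Mgst2 and Mgst3. They are 10 of the 18194 genes with a value. Each was read from a probe set that carries its symbol alone, and among several such probe sets the brightest one on average over the 42 arrays was used. All 10 had a value on every array, and no filter on low values was applied.

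The 42 arrays form 14 groups of 3 mice, with the whole lung of 1 mouse on each array. Wild-type pups, labelled Nrf+/+ (WT), and pups without the gene, labelled Nrf-/- (KO), were taken from room air on the day of birth (P1) or on 1 of the 3 days that followed (P2 to P4). Other pups of each genotype spent 1, 2 or 3 days in hyperoxia and were taken at P2, P3 or P4. Hyperoxia was at least 95% oxygen for 23 h a day, with foster dams. The labels place its start 1 day after birth and also at P1, the day of birth. It was read here as begun within the first day of life. Strain and sex, and whether WT and KO pups were littermates, are not stated in the sources used here. The deletion and any other difference between the WT and KO mice therefore cannot be told apart.

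Glutathione S-transferases join the thiol glutathione to reactive electrophiles, among them the aldehydes that arise when oxygen radicals attack membrane lipids. The cytosolic alpha, mu, omega and theta enzymes work in solution, and the microsomal enzymes sit in membranes. Oxidants and electrophiles release NRF2 from its inhibitor KEAP1, and NRF2 then binds antioxidant response elements near genes for detoxifying enzymes, for the synthesis of glutathione and for NADPH. Several alpha- and mu-class transferases are known targets of NRF2.

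Sequence upstream of the genes is shown for 4 of them because the comparison of genotypes is about a factor that binds such sequence. RefSeq windows of assembly GRCm38.p6, from 250 bases before to 50 after a start site, held 9 of the 10 genes in 11 windows. They were searched on both strands for the core of the antioxidant response element, TGACNNNGC, and for the AP-1 site TGANTCA, whose letters overlap with that core. The core was in 12.4% of all 32851 windows of 300 bases and the AP-1 site in 7.81%. Among the 9 genes, Gsta3, Gstm5 and Mgst1 had the core in a window, and Gstm5 and Mgst2 had the AP-1 site. A match is a description of the letters and not a site shown to be bound, and windows without a match say nothing about elements elsewhere. The stretches below run 5′ to 3′ on the gene's strand up to the base before its annotated span. Capitals mark a match to the core, read on the opposite strand in Mgst1, and the Gstm1 stretch has none.
Gsta3, chr1:21240335-21240564, plus strand: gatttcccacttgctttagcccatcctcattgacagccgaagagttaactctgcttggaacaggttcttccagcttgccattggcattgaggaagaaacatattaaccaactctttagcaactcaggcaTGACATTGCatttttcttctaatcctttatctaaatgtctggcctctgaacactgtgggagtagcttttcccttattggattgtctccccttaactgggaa
Gstm5, chr3:107895604-107895853, plus strand: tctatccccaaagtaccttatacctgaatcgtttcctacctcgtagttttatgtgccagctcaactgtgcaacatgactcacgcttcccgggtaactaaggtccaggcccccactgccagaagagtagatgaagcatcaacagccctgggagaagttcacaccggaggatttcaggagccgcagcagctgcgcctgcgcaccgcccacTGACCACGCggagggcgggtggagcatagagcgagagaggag
Mgst1, chr6:138140277-138140526, plus strand: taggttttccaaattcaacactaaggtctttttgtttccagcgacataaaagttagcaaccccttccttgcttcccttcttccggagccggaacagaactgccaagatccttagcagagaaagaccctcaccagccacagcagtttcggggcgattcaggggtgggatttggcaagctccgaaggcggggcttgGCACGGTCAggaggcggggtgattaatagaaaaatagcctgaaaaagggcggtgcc
Gstm1, chr3:108017974-108018223, minus strand: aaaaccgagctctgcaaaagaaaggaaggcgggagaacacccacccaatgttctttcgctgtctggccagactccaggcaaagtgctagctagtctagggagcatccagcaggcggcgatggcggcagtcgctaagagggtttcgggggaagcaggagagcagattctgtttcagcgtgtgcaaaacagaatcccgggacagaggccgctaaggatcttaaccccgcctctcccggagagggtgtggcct
The Gsta3 core TGACATTGC lies at bases -121 to -113, counted from the start site with -1 as the base before it. The Gstm5 core TGACCACGC lies at -42 to -34, and the Mgst1 letters GCACGGTCA lie at -56 to -48. Gstm5 also holds an AP-1 site, TGACTCA, at -176 to -170. Mgst2 holds one at -52 to -46, counted from a start site that lies inside the annotated span of that gene. Gstm1, Gstm2 and Gstm5 are near neighbours on chromosome 3.

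All values below are deposited log2 expression values, so a difference of 1 is a doubling. Array medians lay between 6.31 and 6.40. The surfactant gene Sftpc, which marks alveolar type II cells, lay between 14.52 and 14.77 on all 42 arrays. It varied least of the measured lung epithelium genes. Sftpa1 ran from 12.36 to 13.72, Abca3 from 11.16 to 12.36 and Aqp5 from 9.89 to 11.83. The probe set of the deleted gene read 10.32 to 11.56 in WT and 4.26 to 5.46 in KO, so every array matched its label. Genes of hepatocytes, such as Alb and Afp, were high on 11 arrays: 9 of the 10 listed genes were measured, and their mean lay more than 2 log2 units over its median across arrays on 7 WT and 1 KO array in air and on 3 WT and 0 KO arrays in hyperoxia. Keratins and related genes of stratified epithelium, a list written after values were seen, were 2.82 log2 units over their median on WT air P2 replicate 1, and 0.60 and 0.52 over it on KO hyperoxia P4 replicate 1 and KO air P2 replicate 3. Calls of the 10 genes that were lost without these arrays are named beside them. With the 11 arrays high in hepatocyte genes left out, 1 array remained in each of WT air P1, P2 and P3 and in WT hyperoxia P4. That of WT air P2 was the one highest in stratified epithelium genes. A lone array is assumed to vary like the other groups. Fewer cells of a type and less RNA per cell cannot be told apart in whole lung. The p-values weigh a difference of means against the spread between mice within groups. That spread is estimated over all 14 groups together, with information shared across genes.

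**Figure D1:**
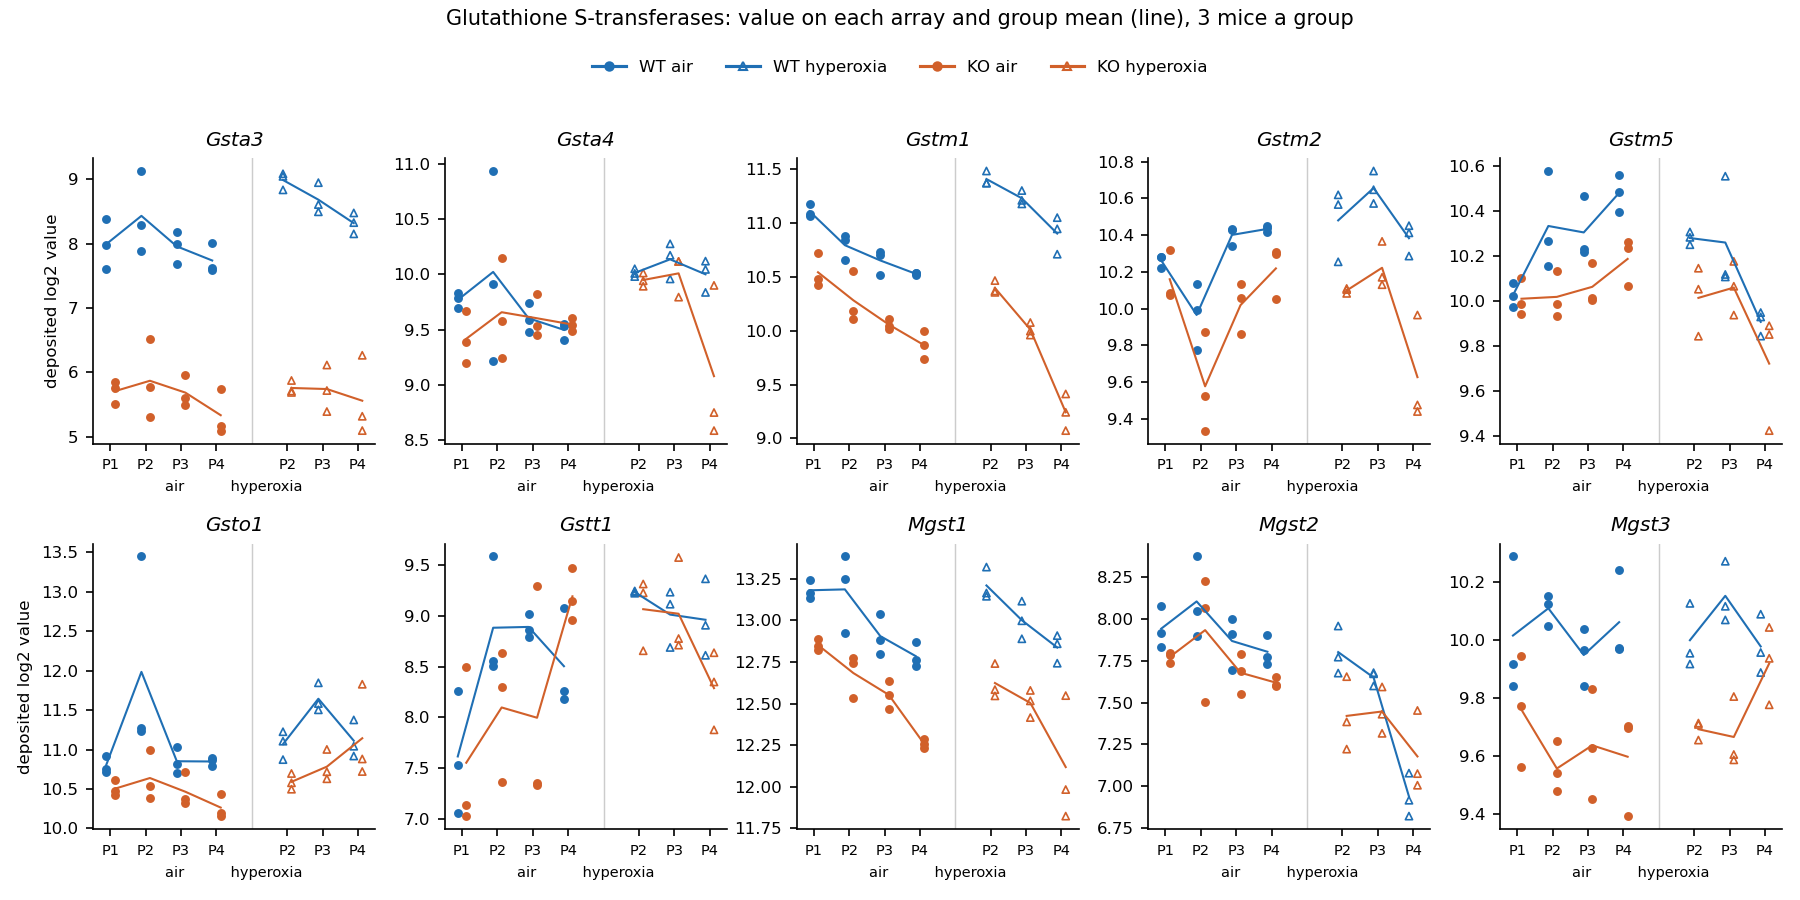
Log2 expression of each of the 10 genes on each of the 42 arrays, 1 panel per gene with its own vertical axis. The horizontal axis gives age and exposure. Points are single mice, and lines join the means of 3. The WT and KO points of Gsta3 stay apart in every group, from 7.60 up in WT and from 6.53 down in KO, while those of Gstt1 are mixed.

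KO against WT was compared first in room air, as the mean difference over P1 to P4 between mice that had no hyperoxia. All 10 genes had a lower mean in KO, and 7 of them were called lower: Gsta3, Gstm1, Gstm2, Gstm5, Gsto1, Mgst1 and Mgst3. A gene is called at an adjusted p under 0.05 in limma, with Benjamini-Hochberg adjustment over all 18194 genes, of which 29.0% were called in this comparison. The median difference over the 10 genes was -0.33, against 0.01 over all genes. Over the settings and left-out arrays tried, 6 to 9 of the 10 were called. Only for Gsta3 did the 12 WT and 12 KO arrays not overlap. The share of all genes without such overlap was not counted.

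Gsta3, an alpha-class enzyme that also acts as a steroid isomerase, had the largest difference of the 10. In WT air its replicates read 7.61, 8.38 and 7.98 at P1, then 7.88, 9.13 and 8.29 at P2, 8.0, 8.19 and 7.69 at P3, and 7.62, 7.60 and 8.01 at P4. In KO air they read 5.76, 5.85 and 5.51 at P1, then 5.77, 5.31 and 6.53 at P2, 5.96, 5.50 and 5.60 at P3, and 5.16, 5.09 and 5.74 at P4. The lowest WT mouse thus stood above the highest KO mouse at every age. The mean difference was -2.38 ± 0.14 (SE, 12 arrays against 12), a 5.22-fold lower level in KO (adjusted p = 5.73e-14, limma). At the single ages it was -2.29, -2.57, -2.27 and -2.41 from P1 to P4. These 4 calls held without any 1 array. A further Gsta3 probe set, with a mean of 4.74 close to the dim end of the array, gave -0.80.

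Gstm1, a mu-class enzyme for aromatic epoxides and lipid peroxidation products, followed with a smaller difference. In WT air its replicates read 11.09, 11.18 and 11.07 at P1, 10.66, 10.85 and 10.88 at P2, 10.74, 10.71 and 10.52 at P3, and 10.52, 10.54 and 10.53 at P4. In KO air they read 10.48, 10.43 and 10.72 at P1, 10.11, 10.56 and 10.18 at P2, 10.05, 10.02 and 10.11 at P3, and 9.86, 9.74 and 10.001 at P4. WT and KO did not overlap within any age, though they did across ages because both genotypes had higher values at P1 than at P4. The mean difference was -0.58 ± 0.05, 1.50-fold (adjusted p = 2.96e-10, limma). It was -0.57, -0.51, -0.60 and -0.66 from P1 to P4. The P2 call was lost with the scores of other tissues as covariates (-0.27, adjusted p = 0.407) and without the 11 arrays high in hepatocyte genes (-0.33, adjusted p = 0.208).

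Gstm2, Gstm5, Mgst1 and Mgst3 were lower in KO by less than that. Gstm2, a mu-class neighbour of Gstm1, ranged from 9.77 to 10.45 with a median of 10.31 in WT air and from 9.34 to 10.32 with a median of 10.07 in KO air, a difference of -0.27 ± 0.06 (adjusted p = 0.00121). Gstm5 ranged from 9.97 to 10.58 with a median of 10.25 in WT and from 9.93 to 10.26 with a median of 10.04 in KO, a difference of -0.22 ± 0.06 (adjusted p = 0.0054). Mgst1, a microsomal enzyme with peroxidase activity, ranged from 12.72 to 13.38 with a median of 12.98 in WT and from 12.23 to 12.89 with a median of 12.59 in KO, a difference of -0.43 ± 0.06 (adjusted p = 2.14e-06). The ranges of all 3 overlapped between genotypes. Mgst3, a microsomal enzyme that can also join glutathione to leukotriene A4, had medians of 10.004 in WT and 9.64 in KO and a difference of -0.40 ± 0.06 (adjusted p = 4.15e-06). Its highest KO mouse, at 9.95 at P1, stood above the lowest WT mouse, at 9.84.

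Gsto1, an omega-class enzyme that reduces rather than conjugates most of its substrates, was lower in KO by 0.65 ± 0.16 (adjusted p = 0.00248, limma), and WT air P2 replicate 1 set much of that spread. This mouse read 13.44, against 11.27 and 11.23 in its group and 10.70 to 11.04 in the other WT air groups. KO air mice lay between 10.16 and 10.99 with a median of 10.43. With the 3 arrays high in stratified epithelium genes left out, a choice made after values were seen, the difference was -0.51 (adjusted p = 1.45e-06). At P2 alone it was -1.34, and -0.61 (adjusted p = 0.0502) without that array. Gsto1 was therefore lower in KO with and without the array, by different amounts.

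Gsta4, Gstt1 and Mgst2 were not called in air. Gsta4, which conjugates the lipid aldehyde 4-hydroxynonenal, differed by -0.17 (95% interval -0.44 to 0.11). Gstt1, a theta-class enzyme, differed by -0.26 (95% interval -0.69 to 0.17), and its mice varied more than those of any other member, with an SD of 0.54 within groups. In the KO air P3 group Gstt1 read 9.29, 7.34 and 7.36. Mgst2, which like Mgst3 can make leukotriene C4, differed by -0.18 (95% interval -0.32 to -0.04; adjusted p = 0.0523), so the test missed the threshold narrowly. It passed with WT air P1, P2 or P3 replicate 3, KO air P2 replicate 1 or 3, or KO air P3 replicate 1 left out (adjusted p from 0.0163 to 0.0479), and with the replicate number as a block (-0.18, adjusted p = 0.0409).

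At single ages, with 3 mice against 3, 2 of 10 were called lower in KO at P1 (6.78% of all genes), 6 at P2 (13.1%), 5 at P3 (21.6%) and 4 at P4 (0.726%). Gsta3 and Gstm1 made up the 2 at P1 and were among those called at every age. The other 4 at P2 were Gstm2, Gsto1, Mgst1 and Mgst3, and the other 3 at P3 were Gstm2, Mgst1 and Mgst3. The Gstm2 call at P2 (-0.39, adjusted p = 0.0321) was lost without WT replicate 1 or 3 or KO replicate 1 or 3 (adjusted p from 0.0787 to 0.216). The P3 count was 2 without WT replicate 1 or 2 and 3 without KO replicate 2 or 3, and each of its calls other than those of Gsta3 and Gstm1 was lost without 3 or 4 of the 6 single arrays (adjusted p from 0.0608 to 0.245). At P4 the other 2 called were Mgst1 (-0.53, adjusted p = 0.0199) and Mgst3 (-0.46, adjusted p = 0.0406), and both calls were lost without WT replicate 1, 2 or 3 or KO replicate 2 or 3, which left a count of 2. The P2 count was 0 in a fit on the 6 arrays of that age alone. With the scores of other tissues as covariates the counts at P2, P3 and P4 were 1, 2 and 2. Without the 11 arrays high in hepatocyte genes they were 4, 2 and 2, with the calls of Gstm1, Gstm2 and Mgst1 lost at P2, those of Gstm2, Mgst1 and Mgst3 at P3, and those of Mgst1 and Mgst3 at P4. Without the 3 arrays high in stratified epithelium genes those of Gstm2 at P2 (adjusted p = 0.157) and Mgst3 at P3 (adjusted p = 0.0529) were lost.

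Some genes of other tissues differed between genotypes in air, and these values stand beside the differences above. Of all genes 29.0% were called in that comparison, 14.4% lower and 14.5% higher in KO. All 9 measured hepatocyte genes were lower in KO, as were 8 of 9 macrophage genes, 5 of 9 heart muscle genes, 3 of 7 ciliated cell genes and 2 of 7 club cell genes, while 7 of 7 thymocyte genes and 4 of 9 lung epithelium genes were higher. The hepatocyte mean, relative to its median over all arrays, ran from -0.41 to 8.01 in WT air and from -0.40 to 4.69 in KO air, the latter on KO air P2 replicate 3, where Gsta3 had its highest KO value of 6.53. Among the arrays low in hepatocyte genes Gsta3 lay between 7.60 and 8.0 on 5 WT air arrays and between 5.09 and 5.96 on 11 KO air arrays. Without the 11 arrays high in those genes the difference was -2.21 for Gsta3, -0.55 for Gstm1, -1.15 for Gsto1 and -0.47 for Gsta4. WT air P2 was then replicate 1 alone, which read 13.44 for Gsto1 and 10.94 for Gsta4, the highest of all arrays. The differences of Gsto1 and Gsta4 in that fit rest in part on this array. With the scores of other tissues as covariates Gsta3 stood at -2.20 and Gstm1 at -0.49, while Gstm2 (adjusted p = 0.0589) and Gstm5 (-0.09, adjusted p = 0.385) were no longer called. The part of macrophage, ciliated, club and other lung epithelial cell numbers in these differences was not tested.

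**Figure D2:**
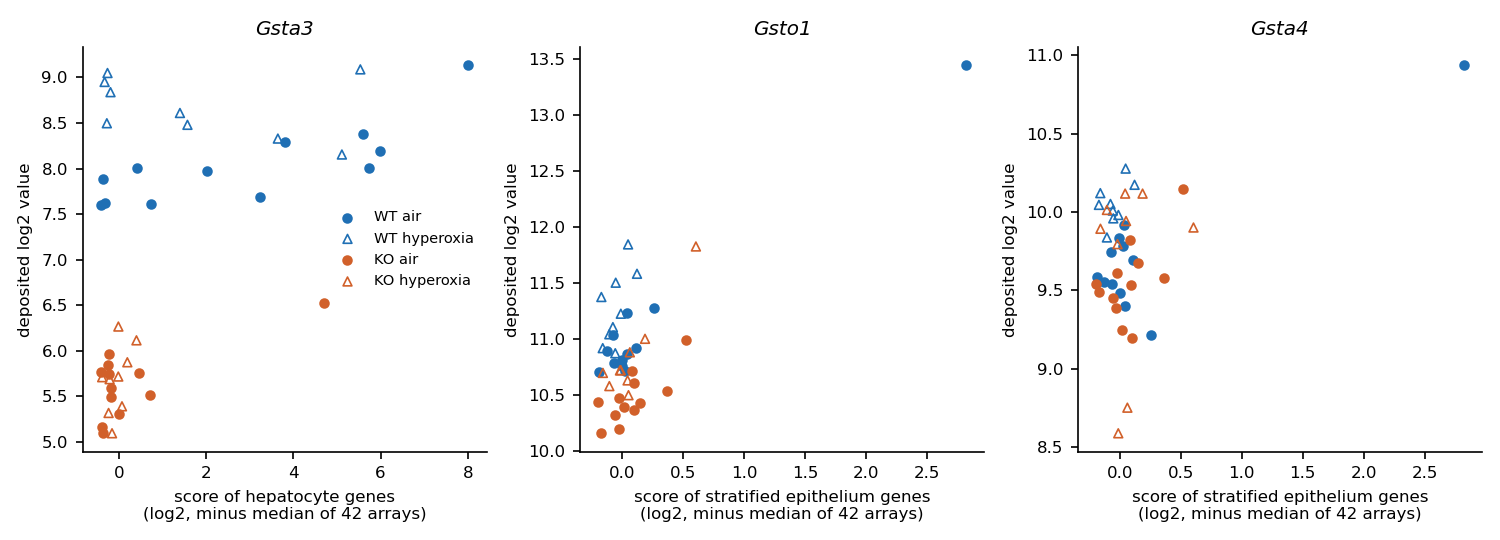
Log2 expression of Gsta3 against the hepatocyte gene score (left) and of Gsto1 and Gsta4 against the stratified epithelium score, each point 1 of the 42 arrays, by genotype and exposure; scores are log2 units from their median over arrays. Gsta3 is lower in KO than in WT at low hepatocyte scores too, and WT air P2 replicate 1, at a stratified epithelium score of 2.82, carries the highest Gsto1 and Gsta4 values.

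KO against WT under hyperoxia, as the mean difference over P2 to P4, again gave a lower KO mean for all 10 genes. Called lower were Gsta3, Gstm1, Gstm2, Gstm5, Mgst1 and Mgst3, 6 of 10, beside 12.5% of all genes. Over the alternatives 5 to 8 were called. The median difference was -0.40, against 0.01 over all genes. The 9 WT and 9 KO arrays did not overlap for Gsta3, Gstm1 and Mgst1, and here too the share of all genes was not counted. These groups are other mice than those in air, although all groups share 1 estimate of the spread. Of the marker lists, 4 of 9 macrophage genes and 3 of 7 club cell genes were lower in KO under hyperoxia, 3 of 9 lung epithelium genes were higher, and 0 of 9 hepatocyte genes were called. The hepatocyte mean ran from -0.33 to 5.53 in WT and from -0.38 to 0.40 in KO hyperoxia. The part of these signals in the differences was not tested.

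For Gsta3 the WT mice read 9.05, 8.84 and 9.09 at P2, 8.61, 8.50 and 8.95 at P3, and 8.15, 8.48 and 8.33 at P4 under hyperoxia. The KO mice read 5.87, 5.71 and 5.69 at P2, 5.39, 6.11 and 5.72 at P3, and 6.27, 5.32 and 5.09 at P4. The mean difference was -2.98 ± 0.17 (9 against 9), or 7.90-fold (adjusted p = 1.00e-14, limma). Nothing of the KO range, which ended at 6.27, reached the WT range, which began at 8.15. By age the difference was -3.24, -2.95 and -2.76.

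For Gstm1 the WT mice read 11.37, 11.37 and 11.49 at P2, 11.18, 11.21 and 11.30 at P3, and 10.71, 10.95 and 11.05 at P4. The KO mice read 10.37, 10.47 and 10.36 at P2, 10.08, 9.96 and 9.998 at P3, and 9.24, 9.07 and 9.41 at P4. KO values were the lowest of any group after 3 days of hyperoxia. The mean difference was -1.30 ± 0.06, or 2.46-fold (adjusted p = 1.92e-17), and at P4 it was -1.66, or 3.16-fold (adjusted p = 1.25e-13). On another Gstm1 probe set, with a mean of 7.86, the P4 difference was -0.13 and not called (adjusted p = 0.571, limma). All 7 single-age differences of Gstm1 between genotypes, and likewise those of Gsta3, stayed called without any 1 array.

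Among the other members under hyperoxia, Mgst1 ran from 12.74 to 13.32 with a median of 13.00 in WT and from 11.82 to 12.74 with a median of 12.55 in KO. The difference was -0.60 ± 0.07 (adjusted p = 1.18e-07), with the highest KO mouse just below the lowest WT mouse. Gstm2 ran from 10.25 to 10.75 with a median of 10.57 in WT and from 9.44 to 10.37 with a median of 10.10 in KO, a difference of -0.52 ± 0.07 (adjusted p = 3.86e-06). The genotypes did not overlap within any age. Mgst3 differed by -0.28 ± 0.07 (adjusted p = 0.00334), with medians of 10.07 and 9.71. Gstm5 differed by -0.22 ± 0.07 (adjusted p = 0.0286), and this call was lost without WT hyperoxia P2 or P3 replicate 1, KO hyperoxia P2 replicate 3, KO hyperoxia P3 replicate 1 or KO hyperoxia P4 replicate 2 (adjusted p from 0.0545 to 0.084), and without the arrays high in hepatocyte genes (-0.23, adjusted p = 0.097).

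Gsta4, Gsto1, Gstt1 and Mgst2 were not called between genotypes under hyperoxia. Gsta4 differed by -0.37 (95% interval -0.69 to -0.05; adjusted p = 0.119). At P4 its KO mice read 9.90, 8.75 and 8.59 against 9.84, 10.05 and 10.12 in WT, and 1 KO mouse thus lay apart from the other 2. Without that mouse, KO hyperoxia P4 replicate 1, the mean difference was -0.51 (adjusted p = 0.0131). The same array read 11.83 for Gsto1, against 10.88 and 10.72 in its group. Without it the Gsto1 difference went from -0.44 (adjusted p = 0.121) to -0.55 (adjusted p = 0.0402). Gstt1 differed by -0.28 (95% interval -0.77 to 0.22) and Mgst2 by -0.12 (95% interval -0.28 to 0.05).

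At single ages under hyperoxia 3 of 10 were called lower in KO at P2 (2.96% of all genes), 5 at P3 (5.13%) and 5 at P4 (9.82%). Gsta3, Gstm1 and Mgst1 were called at all 3 ages. Gstm2 and Mgst3 joined them at P3, and Gstm2 and Gsta4 at P4. The P3 count was 3 without WT replicate 1 or 3 or KO replicate 1. There the Gstm2 call was lost without WT replicate 1, 2 or 3 or KO replicate 1 or 2, that of Mgst1 without WT replicate 3 or KO replicate 1, and that of Mgst3 without WT replicate 1 or KO replicate 3 (adjusted p from 0.0557 to 0.124). The Gsta4 call at P4 was lost without WT replicate 2 or 3 or KO replicate 2 or 3 (adjusted p from 0.0722 to 0.136). Without the arrays high in hepatocyte genes the calls of Gstm2 at P3 (adjusted p = 0.0594) and Gsta4 at P4 (adjusted p = 0.125) were lost. For Gstm2 at P4 the WT mice read 10.29, 10.41 and 10.45 and the KO mice 9.44, 9.48 and 9.97, a difference of -0.76 (adjusted p = 0.000129).

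**Figure D3:**
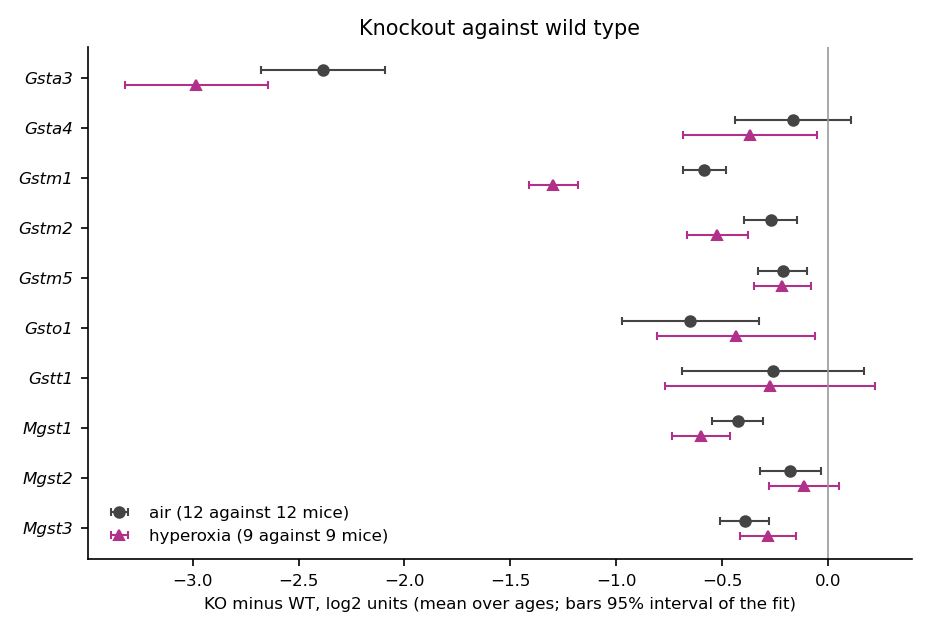
KO minus WT difference in log2 expression for each gene, with 95% confidence intervals from limma; circles are the mean over P1 to P4 in room air (12 arrays a genotype) and triangles the mean over P2 to P4 in hyperoxia (9 a genotype). All 20 differences lie below 0, and Gsta3 lies farthest, at -2.38 in air and -2.98 in hyperoxia.

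Hyperoxia against air was then compared within each genotype, as the mean over P2 to P4 with 9 arrays a group. In WT lungs Gsta3, Gstm1 and Gstm2 rose, and Gstm5 and Mgst2 fell, 5 of 10 beside 23.9% of all genes. In KO lungs no member rose, and Gstm1 and Mgst2 fell, 2 of 10 beside 20.8% of all genes. The median difference of the 10 was 0.15 in WT and 0.05 in KO, against 0.01 and 0.01 over all genes. No member had groups that did not overlap across ages in either genotype. Both comparisons with air use the same air groups as the comparison of genotypes in air.

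Gsta3 rose in WT by 0.62 ± 0.17 (adjusted p = 0.00501, limma), from a median of 8.0 in air to 8.61 in hyperoxia. In KO it differed by 0.06 (95% interval -0.28 to 0.39; adjusted p = 0.877), with medians of 5.60 and 5.71. Gstm1 rose in WT by 0.52 ± 0.06 (adjusted p = 2.51e-08), from a median of 10.66 to 11.21. In KO it fell by 0.19 ± 0.06 on the log2 scale (adjusted p = 0.0188), with medians of 10.05 and 9.998. The KO call was lost without KO air P2 replicate 2 (adjusted p = 0.0556) or KO hyperoxia P4 replicate 2 (adjusted p = 0.0567), and on each of the 3 other Gstm1 probe sets (adjusted p = 0.065, 0.413 and 0.972).

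Gstm1 differed between genotypes in the direction of its values by the last day. In WT the difference from air was 0.61 at P2, 0.58 at P3 and 0.37 at P4, and in KO it was 0.11, -0.05 and -0.62. Without the arrays high in hepatocyte genes the WT differences were 0.50 at P3 and 0.42 at P4, neither of them called (adjusted p = 0.127 and 0.0988). At P4 all 3 exposed WT mice, from 10.71 up, stood above the 3 WT mice in air, which reached 10.54. All 3 exposed KO mice, up to 9.41, stood below the 3 KO mice in air, which began at 9.74 (adjusted p = 9.30e-06 for the KO difference). The difference between genotypes at P4 alone was not tested.

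Gstm2 rose in WT by 0.24 ± 0.07 (adjusted p = 0.0115), and in KO it differed by 0.04 (95% interval -0.10 to 0.19). The WT call was lost without the arrays high in hepatocyte genes (0.27, adjusted p = 0.144). Its values differed in sign between the first and the last day in KO. At P2 it differed by 0.51 in WT and by 0.52 in KO (adjusted p = 0.0118 and 0.00575), where the exposed mice of either genotype stood above those in air. The WT call was lost without WT air P2 replicate 2 or WT hyperoxia P2 replicate 1 or 2 (adjusted p from 0.0699 to 0.112), and the KO call without KO air P2 replicate 1 (adjusted p = 0.0794). With the scores of other tissues as covariates neither was called, at 0.40 in WT (adjusted p = 0.061) and 0.19 in KO (adjusted p = 0.885), nor without the arrays high in hepatocyte genes, at 0.60 (adjusted p = 0.0928) and 0.49 (adjusted p = 0.0637). At P4 it differed by -0.05 in WT and by -0.59 in KO (adjusted p = 0.816 and 0.000305), with KO mice at 9.44, 9.48 and 9.97 in hyperoxia and 10.29, 10.05 and 10.31 in air.

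Mgst2 fell in both genotypes, by 0.46 ± 0.08 on the log2 scale in WT (adjusted p = 4.92e-05) and by 0.40 ± 0.08 in KO (adjusted p = 0.000469). WT mice at P4 read 7.91, 7.73 and 7.77 in air and 6.82, 6.91 and 7.08 in hyperoxia, a difference of -0.87 (adjusted p = 1.31e-05). With the scores of other tissues as covariates the KO difference was -0.19 and no longer called (adjusted p = 0.229). Gstm5 fell in WT by 0.22 ± 0.07 on the log2 scale (adjusted p = 0.0123) and differed in KO by -0.16 (adjusted p = 0.0958). The difference lay at P4, where it came to -0.57 in WT (adjusted p = 0.000258) and -0.46 in KO (adjusted p = 0.00209), against -0.05 to 0.00 at P2 and P3. The WT call at P4 was lost without the arrays high in hepatocyte genes (-0.51, adjusted p = 0.0953). At P4 the exposed mice of each genotype lay below all mice in air for Gstm5 and Mgst2.

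The remaining 5 members were not called in either mean comparison. Mgst1 differed by 0.06 in WT and -0.08 in KO, and Mgst3 by 0.00 and 0.16. Gstt1 differed by 0.31 and 0.36, with wide intervals (-0.19 to 0.80 and -0.13 to 0.86). Gsta4 differed by 0.34 in WT (adjusted p = 0.115) and 0.08 in KO. Without WT air P2 replicate 1, which read 10.94 for Gsta4 against 9.22 and 9.91 in its group, Gsta4 in WT stood at 0.49 (adjusted p = 0.00521). Gsto1 differed by 0.05 in WT and 0.38 in KO, and with the 3 arrays high in stratified epithelium genes left out it rose by 0.29 in WT (adjusted p = 0.00411). Without KO hyperoxia P4 replicate 1 Mgst1 was called lower in KO (-0.15, adjusted p = 0.0419), and without KO air P3 replicate 2 Mgst3 was called higher in KO (0.19, adjusted p = 0.034).

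By single age, 2 of 10 were called higher in WT at P2 (4.33% of all genes), 1 at P3 (5.40%), and 1 higher and 2 lower at P4 (27.5%). In KO 1 was higher and 1 lower at P2 (9.06%), 0 were called at P3 (12.6%; 1 had an unadjusted p under 0.05 in limma), and 2 were higher and 4 lower at P4 (31.7%). Gstm1 was the member called in WT at all 3 ages. The WT P2 count was 1 without exposed replicate 1 or 2. The lower one in KO at P2 was Mgst2 (-0.51, adjusted p = 0.0168), not called without the arrays high in hepatocyte genes (adjusted p = 0.131) or in stratified epithelium genes (adjusted p = 0.0577), nor with tissue scores as covariates (-0.05, adjusted p = 0.987). The KO P2 count was 0 without air replicate 1 and 1 without air replicate 3 or exposed replicate 1 or 3, and the KO P3 count was 1 without air replicate 1. The 4 lower in KO at P4 were Gstm1, Gstm2, Gstm5 and Mgst2, of which Mgst2 was not called without KO hyperoxia replicate 2 or 3 (adjusted p = 0.0686 and 0.0803). The 2 higher in KO at P4 were Gsto1 (0.88, adjusted p = 0.0331) and Mgst3 (0.32, adjusted p = 0.028). The Gsto1 call was lost without KO hyperoxia P4 replicate 1 (adjusted p = 0.256) or KO air P4 replicate 2 or 3 (adjusted p = 0.0881 and 0.0812), and that of Mgst3 without KO air P4 replicate 2 or KO hyperoxia P4 replicate 1 or 3 (adjusted p from 0.0702 to 0.187) or the 3 arrays high in stratified epithelium genes (adjusted p = 0.0752).

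Marker genes of club cells, the secretory cells of the airway lining, were lower under hyperoxia. Of 7 such genes 4 were lower in WT and 6 in KO, and 0 higher. Of all genes 9.53% were called lower and 14.4% higher in WT, and 7.28% lower and 13.5% higher in KO. Their mean ran from -1.51 to 0.28 in WT and from -2.30 to 0.13 in KO hyperoxia, relative to its median over arrays, and read -1.25, -2.30 and -2.21 in the KO hyperoxia P4 group. Gsta4, Gstm1, Gstm5 and Mgst1 had the lowest of their 14 group means in that group. Of 9 macrophage genes 6 were higher under hyperoxia in WT and 6 in KO, and of 9 lung epithelium genes 6 in WT and 2 in KO. In KO 7 of 7 thymocyte genes and 4 of 8 skeletal muscle genes were lower. The part of these signals in the values of the transferases was not tested.

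**Figure D4:**
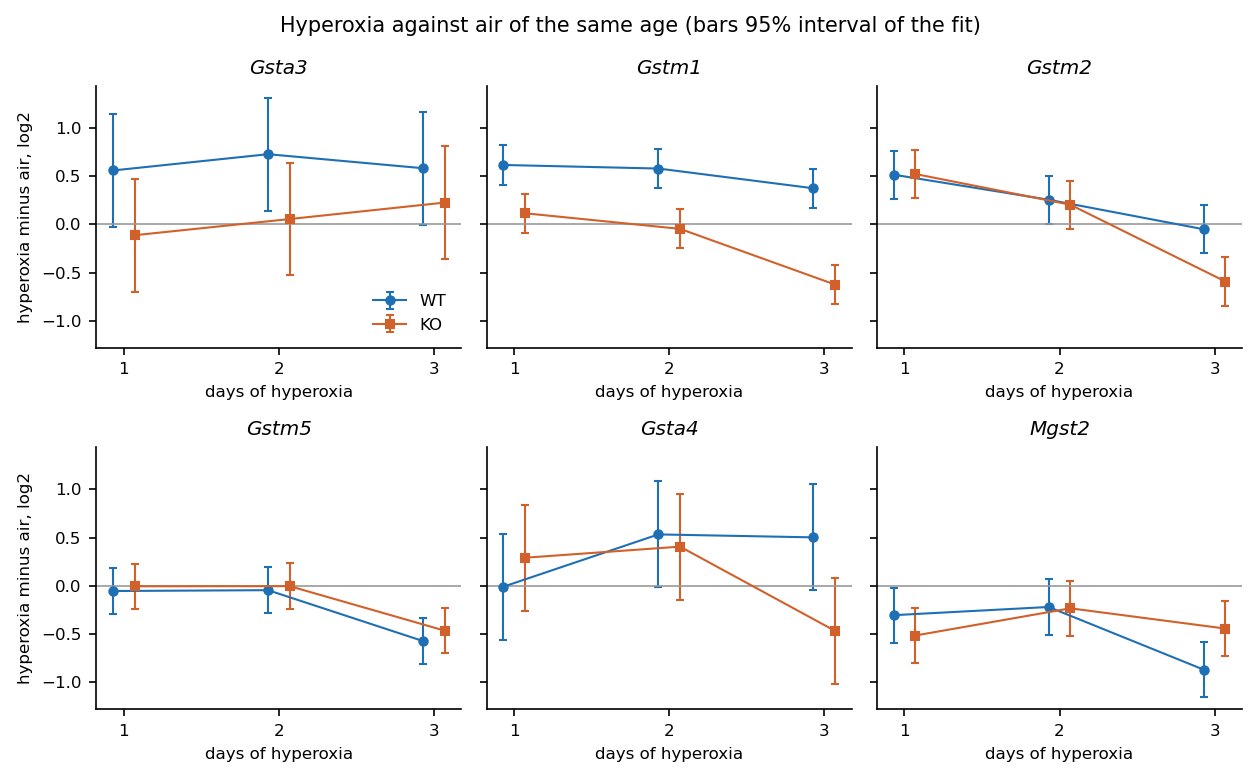
Hyperoxia minus air difference in log2 expression against days of hyperoxia (1, 2 and 3, at P2, P3 and P4) for 6 of the genes, with 95% confidence intervals from limma and 3 arrays a group. For Gstm1 the WT differences are 0.61, 0.58 and 0.37 and the KO differences 0.11, -0.05 and -0.62.

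Whether the response to hyperoxia differed by genotype was tested directly as the difference between the KO and the WT response. Gstm1 was the only member called, 1 of 10 beside 1.19% of all genes. Its KO response was lower than its WT response by 0.71 ± 0.08 log2 units (95% interval of the difference -0.87 to -0.54; adjusted p = 1.77e-06). The difference stood at -0.75 (adjusted p = 0.000558) without the arrays high in hepatocyte genes. On the other Gstm1 probe sets it was -0.72, -0.51 and -0.30, the last not called (adjusted p = 0.188). For Gsta3 it was -0.57 ± 0.23 (95% interval -1.04 to -0.09), which missed the threshold (adjusted p = 0.248). Gstm2 followed at -0.20 (95% interval -0.40 to 0.01), and the rest lay between -0.26 and 0.34. A second member was called under 3 of the alternatives. In the same test 2 of 7 thymocyte genes and 1 of 7 club cell genes had a lower response in KO, and their part in the difference was not tested.

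Age was compared in air as P4 against P1, 3 mice against 3. In WT Gstm5 rose by 0.45 (adjusted p = 0.00373), Gstm1 fell by 0.58 on the log2 scale (adjusted p = 4.32e-05) and Mgst1 fell by 0.40 (adjusted p = 0.0126), beside 22.4% of all genes called. The Mgst1 call was lost without WT air P1 replicate 3 or P4 replicate 3 (adjusted p = 0.0532 and 0.0536). Without the arrays high in hepatocyte genes neither Gstm5 (adjusted p = 0.18) nor Mgst1 (adjusted p = 0.332) was called in WT. In KO Gstt1 rose by 1.64 ± 0.42 (adjusted p = 0.00475), Gstm1 fell by 0.68 (adjusted p = 5.95e-06) and Mgst1 fell by 0.59 (adjusted p = 0.000324), beside 21.6%. Gstt1 read 8.50, 7.14 and 7.03 in KO mice at P1 and 8.96, 9.47 and 9.14 at P4. In each genotype 8 of 9 lung epithelium genes had a lower level at P4 (medians -0.59 in WT and -0.49 in KO), as were 2 of 7 club cell genes in WT and 4 in KO and 3 of 7 ciliated cell genes in KO. Their part in the falls of Gstm1 and Mgst1 was not tested.

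No member was called in the difference between genotypes in P4 against P1 by limma, and none had an unadjusted p under 0.05, beside 0.0275% of all genes called. For Gstt1 that difference was 0.75 (95% interval -0.47 to 1.96). With 3 mice a group such intervals are wide, and they do not show that the genotypes age alike.

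The order of the 14 group means shows how far genotype and exposure separate each member. For Gsta3 the 7 WT groups stood above the 7 KO groups, from 8.99 ± 0.13 (SD, n = 3) in WT hyperoxia P2 down to 7.74 ± 0.23 in WT air P4, and then from 5.87 ± 0.61 in KO air P2 to 5.33 ± 0.36 in KO air P4. Neighbouring means within either set differed by less than the sum of their SDs, so their order is not established. For Gstm1 the highest mean was 11.41 ± 0.06 in WT hyperoxia P2 and the lowest 9.24 ± 0.17 in KO hyperoxia P4, and KO air P1 (10.54 ± 0.16) stood beside WT air P4 (10.53 ± 0.01). Mgst1 ran from 13.21 in WT hyperoxia P2 to 12.12 in KO hyperoxia P4. Mgst2 ran from 8.11 in WT air P2 to 6.94 in WT hyperoxia P4, without a full split by exposure. Its mean in WT hyperoxia P2 (7.80) stood above those in KO air P1, P3 and P4 (7.77, 7.68 and 7.62). Mgst3 had the smallest span of group means, 0.59.

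Likeness between members was described by Pearson's r over the 14 group means, which share arrays and normalisation. Gstm1 and Mgst1 were most alike (r = 0.94), and Gsta3 was most like Mgst3 (r = 0.868), Gstm1 (r = 0.852) and Mgst1 (r = 0.832). Gstt1 and Mgst2 were least alike (r = -0.259). Gstm1 and its neighbours on chromosome 3 were less alike, at r = 0.677 with Gstm2 and 0.493 with Gstm5. Genes with only a predicted or clone name were left out of the search for other genes like Gsta3. The 5 most like it were then Nfe2l2 itself (r = 0.97), Macrod2 (0.97), Trim34a (0.96), Aox1 (0.96) and Trim5 (0.95). Trim34a and Trim5 lie side by side on chromosome 7. The other pairs on a shared chromosome are far apart. On chromosome 2 the span of Macrod2 begins at base 140395303 and that of Nfe2l2 at 75675513. On chromosome 1 the span of Aox1, an aldehyde oxidase, begins at base 58029809 and that of Gsta3 at 21240565. In KO air Trim34a was lower by 2.06 ± 0.12 log2 units and Macrod2 by 0.81 ± 0.07. Likeness to Gsta3, whose group means split by genotype, selects genes that differ between genotypes, so these differences follow from the choice.

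Probe sets of one gene mostly gave the same direction between genotypes. The 4 Gstm1 probe sets differed by -0.58, -0.61, -0.48 and -0.17 in air and by -1.30, -1.34, -1.03 and -0.47 in hyperoxia, and only the value of -0.17 was not called (adjusted p = 0.0532). The probe set that gave -0.17 was not called at any single age in air (-0.18, -0.05, -0.19 and -0.27 from P1 to P4). It was not called at P4 in hyperoxia either (-0.13). The Gstm1 probe set used ends in _x_at, the maker's mark for probes that may also match related transcripts. A share of signal from other mu-class transcripts in it was not tested. The further Gsto1 probe set gave -0.71 and -0.45. The further Mgst1 and Mgst3 probe sets, with means of 4.15 and 5.34 against a median 10th percentile of 4.27 on the arrays, gave 0.04 and 0.03, and 0.00 and 0.10, respectively, none of them called.

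Glutathione has to be made and reduced before the transferases can use it, and genes for that were measured from a list of 12, of which 11 had a value. Of these, 7 were lower in KO in air (median of the 11, -0.21) and 10 in hyperoxia (median -0.50), and 0 were higher. Of all genes 29.0% were called in air and 12.5% in hyperoxia. In WT 9 rose and 1 fell under hyperoxia (median 0.56), beside 23.9% of all genes called. In KO 4 rose and 1 fell (median 0.11), beside 20.8%. Gclc, the catalytic subunit of the enzyme that makes the first bond of glutathione, lay between 9.56 and 9.94 in WT air, 10.46 and 12.34 in WT hyperoxia, 8.98 and 9.63 in KO air, and 9.48 and 10.62 in KO hyperoxia. It rose by 1.37 ± 0.08 in WT (adjusted p = 2.10e-14) and by 0.57 ± 0.08 in KO (adjusted p = 3.22e-06). Slc3a2, the heavy chain of the cystine transporter, rose by 0.76 in WT and 0.68 in KO, and Gss, glutathione synthetase, by 0.73 and 0.42. Me1 and Pgd, which supply NADPH, were lower in KO by 0.51 and 0.36 log2 units in air and by 0.96 and 0.68 in hyperoxia. Taldo1, of the pentose phosphate pathway, was lower by 0.22 in air.

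In the direct test of the response, 7 of the 11 genes of glutathione supply had a lower response in KO (median of the 11, -0.31), and 4 with the arrays high in hepatocyte genes left out. Of all genes 1.19% were called in that test. Gclc rose in both genotypes, by a smaller amount in KO (difference -0.80, adjusted p = 7.02e-05, limma), where Gstm1 fell.

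Of 20 further transferases and relatives 18 had a value. In air 2 were lower in KO, Gstp1, the pi-class enzyme of lung epithelium (-0.30 ± 0.04), and Alox5ap, a membrane relative that serves leukotriene synthesis (-0.34 ± 0.08), beside 29.0% of all genes, and over the alternatives 1 to 8 were called. The Alox5ap call was lost with tissue scores as covariates (adjusted p = 0.0583) and without the arrays high in hepatocyte genes (adjusted p = 0.111). The median of the 18 was -0.05 in air and -0.16 in hyperoxia. Under hyperoxia 8 were lower and 1, Ptges, was higher in KO (0.42), the latter chosen after its value was seen, beside 12.5% of all genes, and over the alternatives 5 to 10 were called. The Ptges call was lost with the mean of all probe sets (0.22, adjusted p = 0.174), with tissue scores as covariates (adjusted p = 0.0538) and on only the arrays of the contrast (adjusted p = 0.0551). Of those lower, Gstt2, Gstm4, Alox5ap and Gstk1, named after their values were seen, lost their calls in 16, 14, 12 and 8 of the 18 fits without 1 array. With exposure 6 rose and 1 fell in WT (median 0.06), beside 23.9% of all genes called. In KO 3 rose and 1 fell (median 0.01), beside 20.8%. Gsta2, an alpha-class enzyme, lay between 6.06 and 7.03 in WT air, 6.10 and 7.03 in KO air, 7.48 and 8.42 in WT hyperoxia, and 4.96 and 7.24 in KO hyperoxia. It did not differ detectably between genotypes in air (-0.10, adjusted p = 0.49), whereas under hyperoxia it was lower in KO by 1.59 log2 units, or 3.01-fold (adjusted p = 4.65e-11). It rose by 1.39 ± 0.13 in WT, and the direct test of the response gave -1.43 ± 0.18 (adjusted p = 7.94e-06), where Gsta3 missed the threshold. Alpha-class transcripts are close to each other in sequence, and their probe sets are uncertain in that respect.

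Genes that export or break down glutathione conjugates numbered 9 with a value of 12 listed. In air 3 were lower in KO, the exporters Abcc1 (-0.29) and Abcc4 (-0.26) and the gamma-glutamyl transferase Ggt6 (-0.14), beside 29.0% of all genes, and under hyperoxia 3, Abcc1 (-0.33), Abcc4 (-0.59) and Abcc3 (-0.42), beside 12.5%. The Ggt6 call was lost in 17 of the 24 fits without 1 array and in 5 other settings. With the mean of all probe sets Abcc1 was not called in air (-0.07, adjusted p = 0.333) or in hyperoxia (-0.14, adjusted p = 0.13). In both genotypes 5 rose and 1 fell under hyperoxia (medians 0.21 in WT and 0.22 in KO). Of all genes 23.9% were called in WT and 20.8% in KO. Abcc1 rose by 0.43 in WT and 0.44 in KO, and Abcc4 by 0.61 and 0.27, and the KO call of Abcc4 was lost in 11 of the 18 fits without 1 array. None was called in the direct test of the response by limma, where 3 had an unadjusted p under 0.05 and 0 to 2 were called over the alternatives.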

How the data were processed

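RNA of whole lung from 42 mice was hybridised to Affymetrix arrays, 1 mouse per array. The deposited table holds log2 values that the authors made with GCOS and RMA, per the submitters' processing notes, without versions. RMA subtracts background, gives all arrays 1 distribution and sums up each probe set, so a change shared by all genes cannot be seen. The values were used as deposited.

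Of 45101 probe sets 34958 carry 1 gene symbol and were used, 932 carry several and 9211 none. This gave 18194 genes, 9012 of them with more than 1 probe set. All 42 arrays were fitted with 14 group means in limma 3.58.1 (lmFit, contrasts.fit and eBayes, two-sided) under R 4.3.3, with 28 residual degrees of freedom. There were 21 contrasts, 8 of them leading, each adjusted by Benjamini-Hochberg over all genes and called under 0.05. Errors are standard errors of that fit. The number of arrays limits the precision. The procedure was tested on simulated data. Figures were drawn with matplotlib 3.10.9 under Python 3.11.15. Promoter windows are RefSeq's.

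The genes and lists were chosen with earlier results of these data known. All 10 members are named, and of the other lists the called genes with the 4 smallest p between genotypes in air and the 3 smallest under hyperoxia in WT, and the 5 genes most like Gsta3. Groups came from the sample titles.

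Alternatives were cyclic loess, array weights, robust variances with an intensity trend, the upper 60 percent of genes, the mean of all probe sets, other probe sets, a replicate block, scores of hepatocyte, heart, skeletal muscle and thymocyte genes as covariates, arrays over 2 in the hepatocyte score left out, only the arrays of a contrast, and each array left out. Leaving out the 3 arrays high in stratified epithelium genes was added after values were seen. Replicate numbers did not pair mice: same-numbered arrays of other groups had a median residual correlation of 0.0094 (from -0.60 to 0.63).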

Additional observations from a re-analysis of the deposited data

Results flagged for a closer look

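The response to hyperoxia differed between genotypes, by the direct test in limma on all genes, for 9 of the genes described, each with a lower response in KO, beside 1.19% of all 18194 genes tested. For Gstm1 the difference of log2 responses was -0.71. Among other transferases it was -1.43 for Gsta2. Among genes of glutathione supply it was -0.80 for Gclc, -0.58 for Gsr, -0.57 for Slc7a11, -0.54 for Gclm, -0.44 for Me1, -0.31 for Gss and -0.30 for Pgd. Gsr reduces oxidised glutathione, Slc7a11 imports cystine and Gclm is the regulatory partner of Gclc, and these 3 were named after their values were seen. Without the arrays high in hepatocyte genes the calls of Gss (adjusted p = 0.103), Pgd (adjusted p = 0.308) and Me1 (adjusted p = 0.241) were lost, and that of Pgd also with tissue scores as covariates (adjusted p = 0.112).

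At P4 every exposed WT mouse had more Gstm1 signal than every WT mouse in air (difference 0.37), and every exposed KO mouse had less than every KO mouse in air (difference -0.62). The genotype difference at that single age was not tested. On another Gstm1 probe set the values were -0.05 in WT and 0.09 in KO.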

How the results depend on the processing

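Of the 71 calls of single members, most alternatives kept direction and call. Calls of the 10 members lost without 1 array stand beside the results, and the cause of the other changes was not tested. The replicate block added Mgst2 in air (-0.18), which gave 8 called members where 7 were called without it, and changed no other leading call. In KO, 2 members were called between hyperoxia and air, but 1 with the mean of all probe sets, 1 with only the arrays of the contrast, 5 without the 3 arrays high in stratified epithelium genes, and 1 to 3 with single arrays left out. In the genotype difference in the response, array weights, the removal of those 3 arrays and the removal of arrays high in hepatocyte genes each gave 2 in place of 1. Removal of the latter gave 1 in place of 3 for P4 against P1 in WT.

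Signs turned on other probe sets of 4 members, of which that of Gstm1 was not dim (mean 7.86). That of Mgst1 gave 0.044 between genotypes in air and 0.033 in hyperoxia, 0.10 at P2 and 0.093 at P3 in air, 0.14 at P4 in hyperoxia, and 0.0014 for exposure in KO. That of Mgst3 gave 0.097 between genotypes in hyperoxia, 0.14 at P3 in air, 0.013 at P3 in hyperoxia and -0.071 for exposure in WT. That of Gsta3 gave -0.14 for exposure in KO, and that of Gstm1 -0.046 and 0.089 at P4 in WT and KO.

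Differences near 0 turned under other settings. For exposure in WT, Mgst3 gave -0.0090 with cyclic loess, -0.034 with the mean of probe sets and -0.018 to 0.034 with single arrays left out, and Gsto1 gave -0.45 without arrays high in hepatocyte genes and -0.079 to 0.29 with single arrays left out. For exposure in KO, Gsta3 gave -0.13 with array weights, -0.040 with the mean of probe sets and -0.062 to 0.17 with single arrays left out. Gsta4 gave -0.054 with array weights and -0.060 to 0.16 with single arrays left out, and Gstm2 gave -0.12 with tissue scores as covariates and -0.012 to 0.094 with single arrays left out. For the genotype difference in the response, Gsta4 gave 0.14 and Gstt1 -0.21 without arrays high in hepatocyte genes, and Gstt1 -0.079 with array weights and -0.070 to 0.27 with single arrays left out. Gstm5 gave -0.044 with tissue scores and -0.0079 without the 3 arrays, and Mgst2 gave -0.0021 with array weights, -0.0019 without the 3 arrays and -0.0044 to 0.12 with single arrays left out.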
